A study of Homo sapiens with 6 samples.

Results

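The comparison described here sets 1 array of IL-6-treated cells against 1 array of untreated cells of the ovarian carcinoma line labelled SKOV-3, that is 2 of the 6 arrays of the study. Per the labels, the treated cells were kept for 1 h in 30 ng/ml of interleukin-6 (IL-6), the untreated cells received neither agent, and RNA from 3 flasks was pooled for each array. The other 4 arrays are 1 more SKOV-3 array, of cells given the anti-IL-6 antibody siltuximab (CNTO328, dose not stated) for 4 h before the same IL-6, and the same 3 conditions in the line Caov-3. Each group is therefore 1 sample without a replicate, the differences below have no p-value, and the number of arrays limits their precision.

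IL-6 binds its receptor IL6R and the shared signal transducer gp130 (IL6ST), and the Janus kinases bound to gp130 then phosphorylate the transcription factor STAT3. STAT3 induces its own gene, the early genes JUNB, FOS, PIM1 and CEBPD, and SOCS3, an inhibitor that binds gp130 and ends the signal. Carcinoma cells of the ovary often secrete IL-6 and can signal through this pathway without added cytokine.

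Many genes are measured on this array type by several probe sets, each a group of short oligonucleotides that together give 1 signal. A probe set was used if its mean log2 signal over both arrays was at or above the array median, and 22228 of 41091 probe sets with a single gene symbol were. They represent 11709 of 19775 genes, of which 5899 had 2 or more such probe sets. In these 5899 genes the directions of several probe sets could be set against each other within the pair of arrays. Probe sets of 1 gene share the same 2 RNA samples, and some share sequence, so they are not replicates of the treatment. A gene was called higher or lower when each of its probe sets lay at least 1.3-fold in that direction, and its gene fold is the median of their log2 folds (IL-6 over untreated).

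The 2 arrays had median signals of 83.7 (untreated) and 80.5 (IL-6) and were scaled alike. Their 5' to 3' signal ratios were 0.735 and 0.668 for ACTB and 0.957 and 0.976 for GAPDH, in the same order. Spiked bacterial poly-A controls (27 probe sets), which pass through labelling, were 1.5 times as high on the IL-6 array as on the untreated one, and hybridisation controls (18 probe sets) 1.04 times. The 280 probe sets of highest signal (mean log2 of 14 or more) had a median log2 fold of -0.24, and 259 of them lay below 0. Of the 5886 genes with 2 or more probe sets above the median over all 3 SKOV-3 arrays, the untreated array stood alone by at least 1.3-fold in every probe set for 13 genes upwards and 12 downwards. The IL-6 array did so for 8 and 5 genes and the siltuximab array for 1 and 2. The part of these differences between arrays in the folds below was not tested.

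The line was checked against its markers. KRT8 and KRT18, the simple epithelial keratins, were at 8584 and 31109 untreated and at 7079 and 26371 with IL-6, and the epithelial adhesion gene EPCAM was at 1891 and 2223. SKOV-3 is known for amplified ERBB2, the gene of the HER2 receptor, but ERBB2 was not high here. Its brightest probe set read 648 (untreated), 580 (IL-6) and 733 (siltuximab, then IL-6), below the 1017, 1243 and 1067 of the Caov-3 arrays. GRB7, which is often amplified together with it, read 197 and 157. The tumour suppressor gene CDKN2A, taken as a marker that is low in SKOV-3, read 175 and 82.6, against 4271 and 4239 in Caov-3. The keratin KRT19 read 4.12 and 18.9, far below KRT8 and KRT18. The data thus go against the known high ERBB2 of this line, and SKOV-3 below means the arrays labelled so. Leukocyte markers were low, with a summed signal over 8 genes of 811 untreated and 437 with IL-6, and 1 of the 8 was above the median on both arrays. The summed signal of 8 fibroblast and endothelium markers was 598 and 720, with 2 above the median on both.

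The first genes examined were the early targets that report IL-6 signalling. SOCS3 was at 1159 untreated and 1602 with IL-6 on its brightest probe set, a log2 fold of 0.46. A second probe set read 122 and 176, a log2 fold of 0.47, but the third read 182 and 152, a log2 fold of -0.23. The IL-6 array was thus the higher on 2 of the 3, and SOCS3 was not called. Folds are read against the scatter of all probe sets of like signal, given as the robust SD (the scaled median absolute deviation) in 10 groups of equal size. The SOCS3 folds lay 2.02, 1.14 and -0.52 robust SDs from the median of their groups. Some probe sets, named with _x_at or _s_at, can also detect related transcripts, and when they were left out the gene fold of SOCS3 was 0.11 instead of 0.46.

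STAT3 was at 1330 untreated and 2527 with IL-6 on its brightest probe set, a log2 fold of 0.92 that lay 4.03 robust SDs out. A second probe set read 718 and 1180, a log2 fold of 0.70 at 3.09 robust SDs. The third read 554 and 526, a log2 fold of -0.07 at -0.27 robust SDs. STAT3 was therefore far from the bulk of probe sets on 2 of its 3 and within it on the last, and was not called. Its gene fold of 0.70 was 0.42 when the _x_at and _s_at probe sets were left out and 0.35 when another, dim probe set was included. JUNB, the AP-1 subunit, has a single probe set above the median, which read 341 and 530, a log2 fold of 0.61 at 2.21 robust SDs. With 1 probe set JUNB could not be checked in this way.

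**Figure D1:**
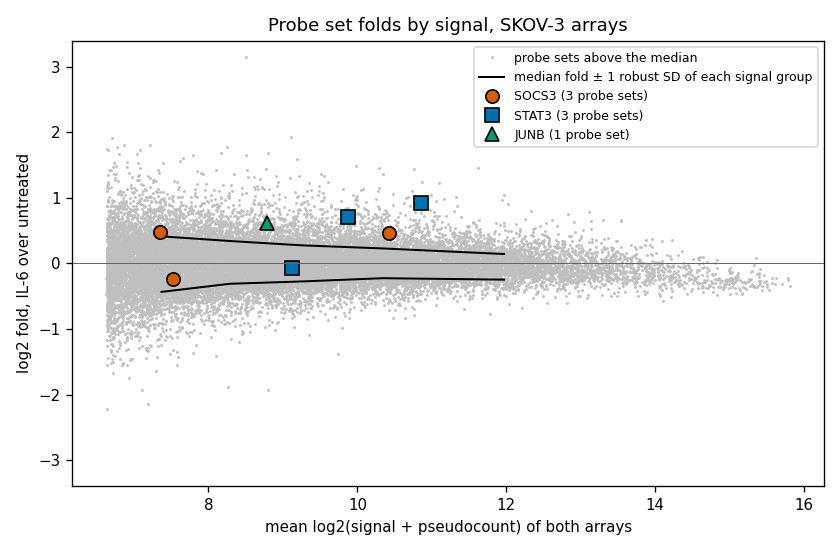
Each grey point is a probe set above the median, with its mean log2 signal over the untreated and IL-6 SKOV-3 arrays on the x axis and its log2 fold on the y axis, and the black lines mark the median fold plus and minus 1 robust SD of each signal group. Of the 3 STAT3 probe sets 2 lie well outside the lines (0.92 and 0.70) and 1 lies at -0.07, JUNB lies at 0.61, and SOCS3 lies at 0.46, 0.47 and -0.23.

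Among the receptor and signal transducers, 13 of the 16 genes measured had 2 or more probe sets, and 0 were called in either direction. Over all 5899 genes 1.03% were called higher and 0.932% lower, so that a count of 0 in a list of this size, or in the similar lists that follow, is near the share over all genes and says nothing about the members. IL6ST had 5 probe sets. The brightest read 8466 untreated and 7344 with IL-6, a log2 fold of -0.20, and the next 2528 and 2589, a log2 fold of 0.03. The 3 dimmer ones were the higher on the IL-6 array, at 264 and 373, 262 and 347, and 158 and 207, with log2 folds of 0.47, 0.38 and 0.36. The brightest probe set of IL6ST thus lay on the other side of 0 from the other 4 used here. IL6R, which confers binding of the cytokine, read 728 and 864 on its brightest probe set and 298 and 333 on the second, log2 folds of 0.24 and 0.15, both within 1 robust SD. JAK1, the kinase that gp130 depends on most, was lower on 2 of 3 probe sets, at 2538 and 1990 and at 1129 and 834 (log2 folds of -0.35 and -0.43), and level on the third at 302 and 304. STAT5B had a gene fold of 0.31 and STAT5A, on 1 probe set, of -0.51. The median gene fold of the list was 0.03, against -0.03 over all 11709 genes.

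Of the inhibitors of cytokine signalling, 12 of 16 measured genes had 2 or more probe sets and 0 were called, against 1.03% higher and 0.932% lower over all genes. SOCS3 had the highest gene fold. PIAS2, a SUMO ligase of the family that restrains STAT factors, was at 0.37, with 4 of its 5 probe sets above 0 and 1 at -0.23. PTPN6, a tyrosine phosphatase that dampens cytokine receptors, was at -0.42 on 1 probe set. The median over the list was 0.08.

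The early targets of IL-6 and STAT3 held 22 measured genes, and 0 of the 9 with 2 or more probe sets were called, again against 1.03% and 0.932% over all genes. Their median gene fold was 0.09, with 16 above 0 and 6 below. Over all 11709 genes the median was -0.03, so that more genes lay below 0 than above it. Whether the counts above and below 0 differ from those of all genes, here and in later lists, was not tested. Past 1.3-fold by the gene fold were STAT3, JUNB, SOCS3 and RHOU, a small GTPase, which was at 0.45 on 1 probe set. Over all genes the gene fold lay past 1.3-fold upwards in 7.06% and downwards in 9.48%, and in this list in 4 and 1 of 22. IL4R, a receptor chain for IL-4, was the 1 lower at -0.40. IRF1 read 990 and 951 on one probe set and 256 and 375 on the other, log2 folds of -0.06 and 0.52. The remaining named targets lay within 1 robust SD of their signal groups. FOS went from 490 to 547 (log2 fold 0.15), the kinase PIM1 from 157 to 182 (0.20), CEBPD from 1613 to 1721 (0.09), CEBPB from 8412 to 7874 (-0.10) and MYC from 22053 to 19094 (-0.21).

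Counts of calls in the next lists are read against the same 1.03% and 0.932%. Of 10 measured AP-1 subunits 5 had 2 or more probe sets and 0 of these were called. JUND was below 0 on all 3 of its probe sets, with log2 folds of -0.20, -0.32 and -0.40. Of 19 immediate early genes 10 had 2 or more probe sets and 0 were called, with a median of -0.01. ZFP36L1, which promotes decay of short-lived mRNAs, read 2892 and 3501 on one probe set and 175 and 254 on the other (log2 folds of 0.27 and 0.50). Its relative ZFP36 read 1007 and 754 on a single probe set, a log2 fold of -0.41. SRF, the factor through which serum induces such genes, was at -0.34. Of 11 measured ERK feedback genes 8 had 2 or more probe sets and 0 of these were called. SPRY4, an inhibitor of receptor tyrosine kinase signalling, went from 3499 to 2148 on 1 probe set, a log2 fold of -0.70 at -3.32 robust SDs. The ERK phosphatase DUSP5 went from 11800 to 8483, a log2 fold of -0.48. DUSP10, a phosphatase of JNK and p38, was lower on both probe sets, at -0.25 and -0.49.

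Over all genes, probe sets of 1 gene moved the same way only somewhat more often than not. Of 3181 genes with exactly 2 probe sets, 54.1% had both on one side of 0, with 798 genes higher on both, 924 lower on both and 1459 split. The share was 58.9% among the 236 genes whose 2 probe sets both lay in the brightest of the 10 signal groups. Of 164 genes whose 2 probe sets both lay past 1.3-fold, 52 were higher on both, 51 lower on both and 61 were split between the directions. Over all 5899 genes, 40.9% had all probe sets on one side. The comparisons of the siltuximab array with the IL-6 array (40.7%) and with the untreated array (38%), both of which share an array with this one, are given beside it, as is IL-6 in Caov-3 (39.5%). The scatter of single probe sets fell with signal, from a robust SD of 0.42 in the sixth signal group (median signal 148) to 0.20 in the brightest (median signal 3994).

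**Figure D2:**
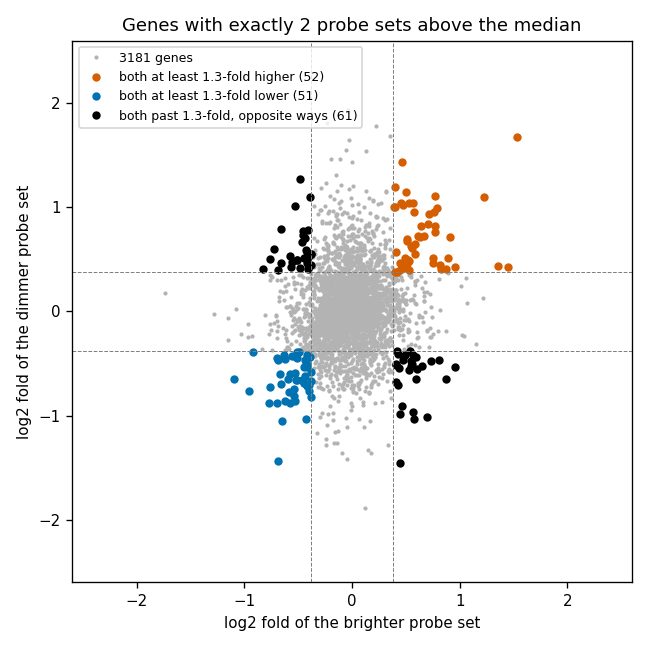
The log2 folds of both probe sets are plotted for the 3181 genes with exactly 2 above the median, the brighter on the x axis and the dimmer on the y axis, with dashed lines at 1.3-fold. Coloured points are the 52 genes past 1.3-fold higher on both and the 51 lower on both, and black points are the 61 past 1.3-fold in opposite directions.

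By the rule of every probe set at least 1.3-fold the same way, 61 of 5899 genes (1.03%) were higher with IL-6 and 55 (0.932%) were lower. Their median gene fold (log2) was 0.67 for the higher and -0.57 for the lower genes. At 2-fold in every probe set the numbers were 2 and 0. Of the higher genes 9 had 3 or more probe sets, and of the lower genes 4. All probe sets lay at least 2 robust SDs from the median of their signal group, in the direction of the call, for 13 of the higher and 5 of the lower genes. Nearest to the threshold were SYT15 and MTM1, with a smallest log2 fold of 0.380 inside and 0.378 outside, and NOD1 and C1orf21 at -0.382 inside and -0.376 outside. The same rule gave 22 higher genes (0.371%) and 27 lower (0.456%) for siltuximab plus IL-6 against IL-6 in SKOV-3, and 30 (0.508%) and 48 (0.812%) for siltuximab plus IL-6 against untreated. In Caov-3, on other arrays, IL-6 against untreated gave 67 higher (1.12%) and 143 lower (2.39%). The numbers moved with the threshold and filter. They were 15 higher and 12 lower at 1.5-fold in every probe set, and 24 and 13 of 2910 genes among probe sets above the 75th percentile.

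The 12 genes that stood highest by their smallest fold were not those of the IL-6 pathway lists. KLK12, a kallikrein-related secreted protease, read 60.9 untreated and 209 with IL-6 on one probe set and 45.3 and 181 on the other, log2 folds of 1.53 and 1.67. Both untreated readings lie below that array's median of 83.7, so that KLK12 passed the filter only through the array on which it is high. Both probe sets are of the _x_at type, and another, dimmer one was at 0.68. PPID, the cyclophilin that works as a co-chaperone of HSP90, read 1419 and 3345 on its brightest probe set and 1148 and 2477 on the second. Its log2 folds of 1.23 and 1.10 lay 6.55 and 4.83 robust SDs out. PPID was the brightest gene with every probe set past 2-fold, and KLK12 the only other.

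RFC2, a subunit of the clamp loader of DNA replication, read 1021 and 1752 on one probe set and 777 and 1331 on the other, log2 folds of 0.77 and 0.76. AKIP1, a partner of protein kinase A, read 977 and 1610, and 788 and 1525, log2 folds of 0.71 and 0.94. PM20D2, a peptidase that cleaves dipeptides, read 1152 and 1895, and 919 and 1655, log2 folds of 0.71 and 0.84. For PPID and these genes all probe sets lay more than 3 robust SDs out. With KLK12, which the filter had favoured, this held for 5 of the 61 higher genes, and it held for 0 of the 55 lower ones.

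Promoters were searched for TTCNNNGAA, the pattern that STAT factors bind, in the 250 bases before the RefSeq start (GRCh38.p14, both strands, since the pattern reads the same on each). It was present in 4 of 55 higher genes with a promoter in the table (7.27%), in 4 of 41 lower genes (9.76%), in 5.75% of the genes with 2 or more probe sets above the median and in 6.78% of all 27305 promoters. The stricter TTCCNGGAA, a subset of it, was in 0 of either called group and in 1.01% of all promoters. Of the 12 highest genes RFC2 and AKIP1 held the pattern, and their promoters are shown with it in capitals beside that of SOCS3, in which these letters did not occur. A match is a description of the letters only. Its absence, as in SOCS3, holds for these 250 bases alone, and sequence outside them was not searched.
SOCS3, chr17:78360926-78361175, minus strand: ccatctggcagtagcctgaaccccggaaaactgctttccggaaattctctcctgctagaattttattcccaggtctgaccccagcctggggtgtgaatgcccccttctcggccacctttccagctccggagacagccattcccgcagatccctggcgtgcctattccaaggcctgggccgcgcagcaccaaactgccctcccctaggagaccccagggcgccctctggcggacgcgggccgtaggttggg
RFC2, chr7:74254400-74254649, minus strand: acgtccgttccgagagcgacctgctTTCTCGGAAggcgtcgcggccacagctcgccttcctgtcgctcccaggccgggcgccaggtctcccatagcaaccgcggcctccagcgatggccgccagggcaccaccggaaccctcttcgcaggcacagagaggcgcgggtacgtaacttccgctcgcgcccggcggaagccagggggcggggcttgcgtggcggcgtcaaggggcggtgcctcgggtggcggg
AKIP1, chr11:8910939-8911188, plus strand: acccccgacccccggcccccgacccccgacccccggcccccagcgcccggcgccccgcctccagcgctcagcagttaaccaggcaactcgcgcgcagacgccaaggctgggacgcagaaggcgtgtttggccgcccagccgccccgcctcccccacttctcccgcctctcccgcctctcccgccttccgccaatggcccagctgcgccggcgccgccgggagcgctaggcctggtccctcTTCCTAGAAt

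CARNMT1, the methyltransferase that makes anserine from carnosine, read 841 and 1469 on its bright probe set and 70.3 and 157 on its dim one, log2 folds of 0.79 and 0.99. C1orf174 read 1632 and 2557, and 244 and 444, log2 folds of 0.64 and 0.82. FLCN, the tumour suppressor folliculin of nutrient sensing, read 658 and 1059, and 107 and 189, log2 folds of 0.67 and 0.73. TOR4A, of the torsin ATPase family, read 455 and 870, and 424 and 706, log2 folds of 0.91 and 0.71, both on _x_at probe sets. IGFBP5, which binds insulin-like growth factors, read 159 and 281, and 90.3 and 191, log2 folds of 0.76 and 0.96, and its 4 dimmer probe sets were also above 0. The zinc finger gene ZBTB3 read 228 and 401, and 115 and 216. BDNF-AS, an antisense transcript of the neurotrophin gene BDNF, read 177 and 314, and 59.9 and 148. All 12 genes remained called after quantile normalization and cyclic loess. When probe sets had to be above the median on both arrays 9 of the 12 remained, and KLK12, CARNMT1 and BDNF-AS, each with a probe set below the untreated median, did not. With the _x_at and _s_at probe sets left out 5 of the 12 remained, namely CARNMT1, BDNF-AS, ZBTB3, FLCN and C1orf174. The others then had fewer than 2 probe sets.

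The 12 genes that stood lowest were mostly dim. JAK3, the Janus kinase of cytokine receptors with the common gamma chain, read 187 untreated and 103 with IL-6 on one probe set and 131 and 63.6 on the other, log2 folds of -0.77 and -0.87. The value of 63.6 lies below the median of the IL-6 array (80.5), so that this probe set passed the filter only through the untreated array. GPAT4, an acyltransferase of glycerolipid synthesis, was the brightest of the 12, at 1208 and 736, and 341 and 177, log2 folds of -0.70 and -0.88. STARD10, a lipid transfer protein, read 456 and 262, and 287 and 167, log2 folds of -0.76 and -0.73. NAB2, the corepressor of EGR factors, read 553 and 353, and 252 and 132, log2 folds of -0.62 and -0.86. TAGLN, the actin-binding transgelin, was lower on 3 probe sets, at 170 and 96.9, 179 and 84.1, and 112 and 65.4. The 65.4 of TAGLN likewise lies below the median of the IL-6 array.

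PTGDS, a prostaglandin D synthase, read 207 and 122, and 219 and 70.3, while another, dimmer probe set was at 0.01. AKR1C1, an aldo-keto reductase, read 339 and 219, and 298 and 184, on _x_at probe sets that its near-identical relatives can share, so that its value is uncertain. The 5 others were TFCP2L1, a transcription factor, at log2 folds of -0.96 and -0.76, FGD2, an activator of CDC42, at -0.66 and -1.05, the microtubule-associated MTUS1 at -0.67 and -0.60, LRRC43 at -1.10 and -0.64, and TMEM198B at -0.66 and -0.69. On the dimmer probe sets of FGD2 the log2 folds ran from -2.27 to 0.76. With the _x_at and _s_at probe sets left out 3 of the 12 remained, namely JAK3, GPAT4 and TMEM198B. TAGLN, LRRC43 and MTUS1 were not called with a pseudocount of the array median, and the other 9 remained. When probe sets had to be above the median on both arrays 6 of the 12 remained, and JAK3, TFCP2L1, PTGDS, FGD2, LRRC43 and MTUS1, each with a probe set below the IL-6 median, did not.

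**Figure D3:**
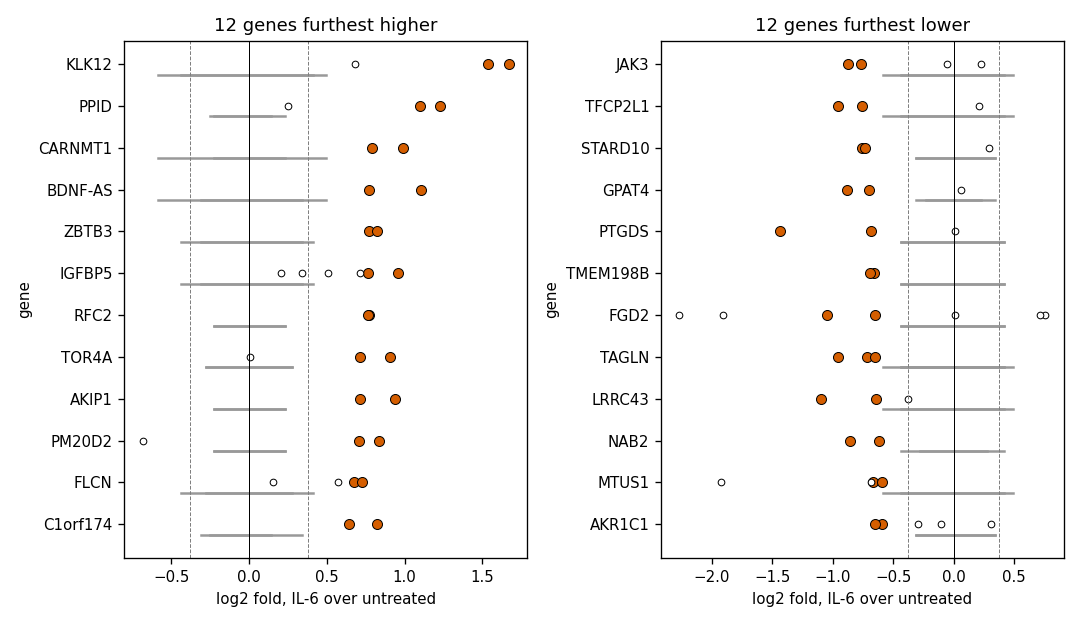
Log2 folds (IL-6 over untreated) of every probe set of the 12 genes furthest higher and the 12 furthest lower, by their smallest fold, are shown with filled points for probe sets above the median and open points for dimmer ones. Grey bars span the median plus and minus 1 robust SD of the signal groups of the filled points, and dashed lines mark 1.3-fold, which every filled point lies beyond.

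Genes called on 3 probe sets were named next, chosen after their values were seen. FRMD8, a partner of the iRhom proteins that control the protease ADAM17, read 1671 and 2502 on its brightest probe set, 70.9 and 170 on the second and 59.0 and 130 on the third. Its log2 folds were 0.58, 1.09 and 0.95, with a dimmer probe set, below the median, at -1.06. The untreated readings of 70.9 and 59.0 lie below that array's median of 83.7, so that these FRMD8 probe sets passed the filter only through the IL-6 array. PDE12, a nuclease that trims poly(A) tails in mitochondria, read 2409 and 3375, 911 and 1489, and 70.5 and 119, with a dimmer one at -1.67. The 70.5 of PDE12 also lies below the untreated median. PHAX, the export adaptor of small nuclear RNAs, read 1789 and 2775, 1441 and 2095, and 944 and 1268, with log2 folds of 0.63, 0.53 and 0.42.

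RBL1, the RB-related p107 that represses E2F targets, read 377 and 619, 224 and 350, and 109 and 161, with a dimmer one at -0.77. TUBD1, delta-tubulin of the centriole, had log2 folds of 0.81, 0.52 and 0.80, TRAPPC13, of a vesicle tethering complex, of 0.69, 0.47 and 0.41, and GREB1L of 0.48, 0.55 and 0.40. The third TRAPPC13 probe set (70.9 and 100) passed the filter only through the IL-6 array. The zinc finger genes ZNF814 and ZNF431 were also called higher on 3 probe sets, and ZNF814 had dimmer ones at -0.36 and -0.43. Lower on 3 probe sets, beside TAGLN, were PTPA, an activator of the phosphatase PP2A, at -0.66, -0.60 and -0.43, KLHL18 at -0.42, -0.48 and -0.69, and the kinase CDC42BPA at -0.49, -0.40 and -0.44, whose dimmer probe sets were at 0.39 and 1.08. The third KLHL18 probe set (110 and 61.6) passed the filter only through the untreated array. After quantile normalization ZNF431 was not called, and the other 12 genes with 3 probe sets were.

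The levels on the third SKOV-3 array, of cells given siltuximab before IL-6, are set beside these. A comparison with this array would share the untreated or the IL-6 array with the one above, so its levels alone are given. STAT3 read 1463 there on its brightest probe set (1330 untreated and 2527 with IL-6) and 636 on the second (718 and 1180). SOCS3 read 1321 on its brightest probe set, between 1159 and 1602, but 183 on the second, above both. JUNB read 380, between 341 and 530. The levels of the third probe sets of STAT3 and SOCS3, which were not higher with IL-6, are not given here.

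Among the 12 highest genes the siltuximab array took both positions. Near the untreated level on both probe sets were AKIP1 (797 and 726), RFC2 (945 and 826), TOR4A (382 and 363) and IGFBP5 (183 and 97.3). PPID (1903 and 1312) lay between its untreated and IL-6 levels on both probe sets. Near the IL-6 level were PM20D2 (1743 and 1631), CARNMT1 on its bright probe set (1458) and BDNF-AS (325 and 186). The 12 genes were chosen by how far the IL-6 array stood above the untreated array, which enters this reading again. Whether these levels reflect IL-6 or a low reading on the untreated array was not tested. KLK12 read 103 on one probe set and 175 on the other. FLCN, C1orf174, ZBTB3 and the dim probe set of CARNMT1 are not sorted here. Among the lowest genes, NAB2 on its dimmer probe set (246) and LRRC43 on one (154) were near untreated. TFCP2L1 (78.8 and 81.7), TMEM198B (115 and 111) and AKR1C1 (216 and 219) were near the IL-6 level. JAK3, GPAT4, STARD10, PTGDS, TAGLN, FGD2, MTUS1 and the other probe sets of NAB2 and LRRC43 are not sorted here.

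**Figure D4:**
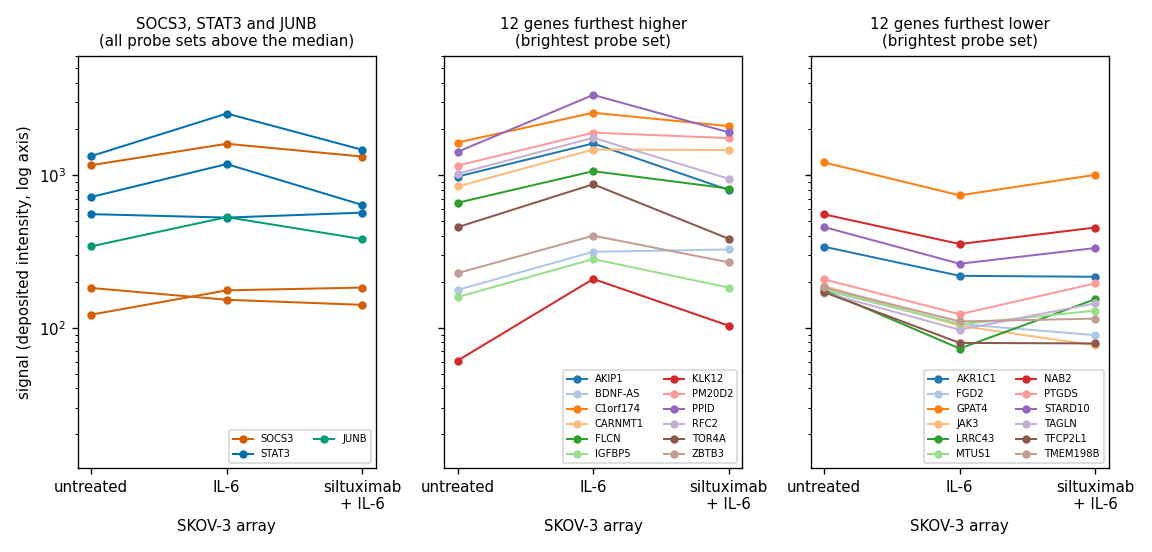
Deposited signal (log axis) on the untreated, IL-6 and siltuximab plus IL-6 arrays of SKOV-3, 1 array each, is drawn for all probe sets above the median of SOCS3, STAT3 and JUNB and for the brightest probe set of the 12 highest and 12 lowest genes. On the third array AKIP1, RFC2 and TOR4A read near their untreated level, and PM20D2, CARNMT1 and BDNF-AS near their IL-6 level. The highest and lowest genes were chosen by the untreated and IL-6 arrays.

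Caov-3 gives an IL-6 comparison on other arrays. Of the called genes, 44 of the 61 higher and 44 of the 55 lower had 2 or more probe sets above the median in Caov-3 too. Of the 44 higher genes 18 had a gene fold above 0 in Caov-3 (40.9%) and of the 44 lower genes 20 (45.5%), where 47.4% of all 5268 genes measured in both lines did. The higher genes had a median gene fold of -0.13 in Caov-3, the lower genes of -0.03 and all 5268 genes of -0.02. Of all 5268 genes 0.949% were called higher and 2.16% lower in Caov-3. Called in both lines the same way were PM20D2 and NECTIN3 upwards and PKP3 downwards, named after their values were seen. PM20D2 went from 2152 to 3305 and from 1663 to 2617 in Caov-3, and NECTIN3, a cell adhesion gene, from 352 to 580 and from 155 to 207. PKP3, a desmosome plaque gene, went in SKOV-3 from 756 to 555 and from 182 to 122, and its Caov-3 levels went from 1044 to 734 and from 303 to 109. NECTIN3 was not called in SKOV-3 after quantile normalization or cyclic loess. STAT3 went the other way in Caov-3, at log2 folds of -1.58, -1.40 and -1.43 on the 3 probe sets that read 0.92, 0.70 and -0.07 in SKOV-3.

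Over all 28 lists, 240 different genes had 2 or more probe sets, and 1 of them was called higher and 0 lower, where the shares over all genes were 1.03% and 0.932%. The called gene was CDC6, the licensing factor of replication origins, in the cell cycle list. CDC6 read 1398 untreated and 2886 with IL-6 on one probe set and 1820 and 2632 on the other, log2 folds of 1.04 and 0.53 at 4.56 and 2.97 robust SDs. The list held 14 genes with 2 or more probe sets, and its median over 22 genes was -0.03. CDK6, the G1 kinase, was at 0.38, but its 6 probe sets ran from -0.19 to 0.79.

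Survival genes of the BCL2 and IAP families had a median of -0.09, with 10 of 13 below 0, where the median over all 11709 genes was -0.03. BCL2L1, which encodes BCL-XL, was lower on all 3 probe sets, at 1600 and 1366, 692 and 486, and 645 and 438, log2 folds of -0.23, -0.50 and -0.54. MCL1 lay close to 0 over 6 probe sets (gene fold 0.00), from -0.15 to 0.37. XIAP, an inhibitor of caspases, was at 0.36, with 7 probe sets from -0.11 to 0.63. Of 18 measured NF-kB genes 11 were below 0, among them the chemokine CCL20 (561 and 372, log2 fold -0.57), NFKBIA at -0.39, RELB (682 and 511, log2 fold -0.40) and TNFAIP2 at -0.30 and -0.53. Acute phase and complement genes, which IL-6 induces in liver cells, had 8 measured members with a median of -0.16. LCN2, an iron carrier, went from 943 to 669 (log2 fold -0.49), SERPINA3 from 163 to 109 and A2M from 115 to 77.4. The 77.4 of A2M lies below the median of the IL-6 array (80.5), so that A2M passed the filter only through the untreated array.

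Interferon-stimulated genes had a median of -0.09 over 21 members, with 14 below 0. IFIT1 (24484 and 18827) and ISG15 (37906 and 29528), both very bright, were at -0.38 and -0.36. Stress genes of the endoplasmic reticulum had a median of 0.02, with the transcription factor XBP1 at 0.51 (1102 and 1571) and CHAC1, which degrades glutathione, at -0.65 (458 and 285). TRIB3, a pseudokinase, was lower on both probe sets, at -0.25 and -0.57. Splicing factors had 16 of 24 members above 0 and a median of 0.07. SRSF11 was above 0 on 4 probe sets (0.67, 0.19, 0.39 and 1.43). U2AF1 was at 0.05 on its brightest probe set and at 0.42 and 1.09 on the others.

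Coat and transport proteins of the Golgi had a median of 0.05, with SEC24D at 0.85 (295 and 546) on 1 probe set and BLZF1 at 1.14, 0.08 and 0.61 on 3. Chromatin genes were at -0.04, mesenchymal markers at 0.05, epithelial markers at -0.07 and drug transport genes at 0.00. In the last list ABCC4, an efflux pump, was above 0 on 3 probe sets (0.77, 0.31 and 0.24), and TUBB, a beta-tubulin, was below 0 on 3 (-0.42, -0.38 and -0.23). The list of identity genes was at -0.24, with CDKN2A at -0.95 (175 and 82.6) on 1 probe set of the _x_at type and PAX8 at -0.24 and -1.23. The 82.6 of CDKN2A lies close to the median of the IL-6 array (80.5), and both readings are far below those of Caov-3 (4271 untreated and 4239 with IL-6). By the mean of both arrays, 4 genes of the longer leukocyte marker list were above the median, and they had a median of -0.78 and 3 of the fibroblast and endothelium list one of -0.15. Among the leukocyte markers LCP1 (170 and 50.8) and CD14 (135 and 77.6) passed the filter only through the untreated array. CSF1R (81.4 and 83.9) passed only through the IL-6 array. The filter thus favoured the lower folds of LCP1 and CD14, and the median of -0.78 rests partly on them.

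Lists of very bright genes lay below 0 together with the brightest probe sets as a whole. Ribosomal proteins had a median of -0.23 in the values as given, which quantile normalization moved to 0.01 and cyclic loess to -0.08. For heat shock genes these medians were -0.18, -0.01 and -0.08, for proteasome subunits -0.12, -0.05 and -0.03, for respiratory chain subunits -0.14, -0.10 and -0.06, and for reference genes -0.15, -0.08 and -0.08. GAPDH was below 0 on 3 probe sets (42288 and 32804, 42986 and 31454, 43198 and 31267), and so was ACTB. The chaperone HSP90AA1 was below 0 on 4 probe sets as deposited, from -0.15 to -0.30, and 2 of the 4 were above 0 after quantile normalization. Hypoxia and glycolysis genes were at -0.12, -0.11 and -0.10 in the same order, and sterol synthesis genes at -0.15, -0.18 and -0.17.

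**Figure D5:**
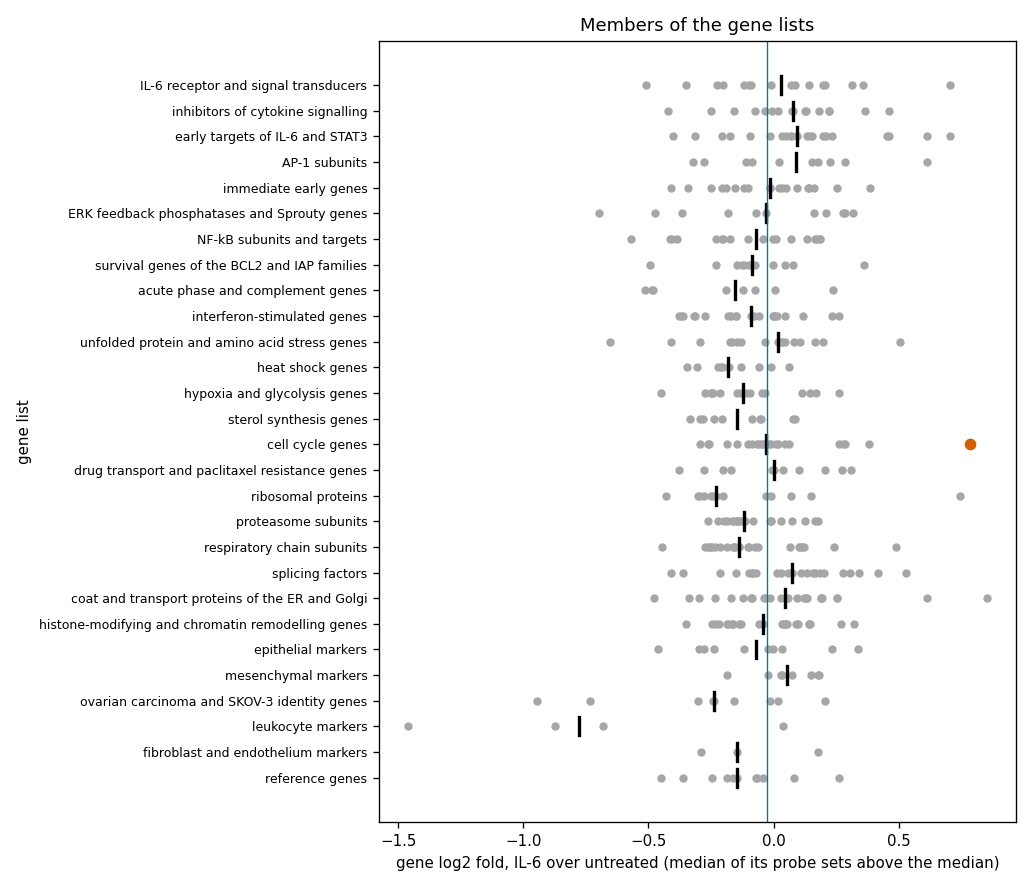
Each point is the gene fold (log2, IL-6 over untreated) of a list member with at least 1 probe set above the median, the thick bar is the median of the list, and the thin line is the median of all 11709 genes (-0.03). CDC6 (0.78, in colour) was the 1 member called, and list medians run from -0.78 for the 4 leukocyte markers to 0.09 for early targets of IL-6 and STAT3. Of the leukocyte markers, LCP1 and CD14 passed the filter only through the untreated array.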

How the data were processed

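Total RNA labelled with biotin was measured on 6 Affymetrix U133 Plus 2.0 arrays, 1 per group. The authors deposited 1 linear intensity for each probe set, from Affymetrix Expression Console and MAS5 per the submitters' processing notes (versions: not given in the sources used here). On every array the 2% trimmed mean lay between 500.06 and 500.07. No detection calls were used.

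Values were taken to log2 after adding 17.06, the 20th percentile of the values of named probe sets. Of 54675 probe sets 41091 carried 1 gene symbol, 1801 several, 11721 none, and 62 were array controls. Symbols came from the array annotation, and 41037 were matched to RefSeq gene records. The array median was taken over all probe sets but controls. Robust SDs were taken in 10 groups of named probe sets ranked by mean log2 signal. Groups came from the sample titles. No p-value was computed, as each group is 1 array.

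The text names, in each direction, the 12 genes with the largest smallest fold over all probe sets, fixed pathway genes, and up to 3 members of each of 28 lists with the largest gene fold. STAT5B, RHOU, IL4R and NFKBIA were named after their values were seen. Members and lists were chosen with earlier results of these data known. Alternatives changed the pseudocount, scaling (quantile, cyclic loess in limma 3.58.1, R 4.3.3), filter, probe sets and call rule. The tools were matplotlib 3.10.9, scipy 1.17.1, pandas 2.3.3 and numpy 2.4.6 under Python 3.11.15. Some list members are not analysed here.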

Additional observations from a re-analysis of the deposited data

Results flagged for a closer look

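Some genes stood one way in SKOV-3 and the other way in Caov-3 with every probe set past 1.3-fold in both lines, a difference between the lines that was not tested. CDC6 had a gene fold of 0.78 in the first line and -0.74 in the second, where its probe sets went from 842 to 523 and from 668 to 372. RBL1 was at 0.61 and -0.59, and RFC2 at 0.77 and -1.22, with 1337 to 494 and 1038 to 495 in Caov-3. STARD10 stood the other way round, with -0.75 and 0.48. The Caov-3 IL-6 array had an ACTB 5' to 3' signal ratio of 0.494, against 0.660 for untreated Caov-3 and 0.668 for IL-6 in SKOV-3. The GAPDH ratios were 1.05 with IL-6 and 1.03 untreated in Caov-3, and the median signals 72.6 and 89.6. The part of these array differences in the values above was not tested.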

How the results depend on the processing

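As reported, 61 genes were higher and 55 lower of 5899. A pseudocount of the median gave 31 and 25 of 5912, and 1.5-fold in every probe set 15 and 12 of 5899. A filter at the 75th percentile gave 24 and 13 of 2910, and no filter on signal 158 and 327 of 10523. Requiring 2 probe sets past 1.3-fold and none the other way gave 292 and 153 of 5899. With probe sets above the median on at least 1 array the numbers were 74 and 88 of 6290. They were 49 and 23 of 3041 with the _x_at and _s_at probe sets left out, and 44 and 35 of 5899 at 1.5 robust SDs. The share of genes with all probe sets on one side (40.9%) was 47.7% at the 75th percentile, 36.3% without a filter and 45.0% without those probe sets. The STAT3 gene fold of 0.70 was 0.35 without a filter and 0.42 without those probe sets. SOCS3 went from 0.46 to 0.11 without those probe sets, JUNB stayed between 0.50 and 0.64 and has no value at the 75th percentile, and SOCS3, STAT3 and JUNB kept their sign in all settings that gave a value. Lower genes outnumbered higher ones with no pseudocount (68 higher, 71 lower), after quantile normalization (57, 68) and after cyclic loess (60, 62), and also with no filter and at least 1 array above the median. After quantile normalization the list median turned from -0.23 to 0.01 for ribosomal proteins, from -0.01 to 0.01 for immediate early genes and, for stress genes of the endoplasmic reticulum, from 0.02 to just below 0. No paired analysis was possible because each group has 1 array. The number of arrays, and below the median signal the scatter of folds (robust SD of up to 1.06), limit these values.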

Other observations

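Genes with many probe sets on one side of 0 were chosen after their values were seen. Of 688 genes with 4 probe sets 92 were higher on all and 49 lower on all, and of 281 genes with 5 these numbers were 23 and 12. The numbers were nearly equal among 1571 genes with 3 (254 and 257), and genes with 2 leaned the other way (798 and 924 of 3181). Highest by their smallest fold were SNAP23, a vesicle fusion protein, with 4 probe sets at log2 folds of 0.35 to 0.69, KLHL24 with 4 at 0.26 to 0.38, and SMAD5, a transducer of BMP signals, with 5 at 0.24 to 0.98. PRKAA1, a catalytic subunit of the energy sensor AMPK, had 4 at 0.15 to 0.76. Lowest were MAPT, the microtubule protein tau, with 4 at -0.79 to -0.36, DAGLB, a diacylglycerol lipase, with 4 at -0.78 to -0.33, and AP2A2, a clathrin adaptor subunit, with 4 at -0.43 to -0.29. APLP2, a relative of the amyloid precursor, was lower on all 8 of its probe sets, at -0.52 to -0.17, and the alpha-tubulin gene TUBA1B on all 5, at -0.39 to -0.25.

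RPL18 had a probe set of the _x_at type at 105 untreated, 1064 with IL-6 and 849 with siltuximab plus IL-6, a log2 fold of 3.14 for IL-6 at 9.59 robust SDs. In Caov-3 the same probe set read 95.7, 694 and 560. The bright probe set of the gene read 38191, 31948 and 32464 in SKOV-3, a log2 fold of -0.26 for IL-6. FUBP3, a single-stranded DNA-binding protein named after its values were seen, was called higher at log2 folds of 1.45 and 0.43, and read 1887, 5197 and 3715 on its bright probe set over the same 3 arrays.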
